A study of Arabidopsis thaliana with 30 samples.

Results

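The 3 ribonucleotide reductase genes RNR1 (AT2G21790), RNR2A (AT3G23580) and TSO2 (AT3G27060) were followed in Arabidopsis thaliana seedlings with damaged DNA. They were chosen by identifier among the 68575 identifiers of the count table, and all 3 were among the 21110 genes that passed the filter on low counts. The 30 RNA-seq libraries came from seedlings, 14 days old and labelled as whole seedlings, of 2 genotypes, wild-type Col-0 and Δlinda, in which the long noncoding RNA gene LINDA is mutated. All 30 are described with 10 h of light and 14 h of dark per day. Seedlings spent 3 h in liquid medium without the drug (mock, 4 Col-0 and 3 Δlinda libraries) or with 80 µg/ml Zeocin (3 Col-0 and 4 Δlinda), a bleomycin relative that makes double-strand breaks in DNA. Others were kept in normal light or harvested 3 h after 2 kJ UV-C, radiation that links neighbouring pyrimidine bases (4 libraries of each genotype in each). The sources used here give no area for the UV-C dose, no account of how the Δlinda allele was made or whether it is 1 line, and no statement that replicates were separate cultures.

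Ribonucleotide reductase turns ribonucleotides into deoxyribonucleotides, the step that limits the supply of building blocks for DNA synthesis and repair. The large subunit carries the catalytic and allosteric sites, and the small subunit carries the iron centre and the radical that start the reaction. In Arabidopsis RNR1 encodes the large subunit, and RNR2A and TSO2 encode small subunits. In budding yeast the genes of this enzyme are a textbook case of transcripts raised by DNA damage.

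In the TAIR10.1 reference RNR1 lies on chromosome 2 with 17 exons and 2448 coding bases. RNR2A (9 exons, 1023 coding bases) and TSO2 (2 exons, 996 coding bases) lie on chromosome 3. The coding sequences of the small subunits were 67.4% identical over 980 aligned bases, and no stretch of 31 bases was shared by any pair of members or occurred again elsewhere in the genome. Another small-subunit locus, RNR2B (AT5G40942), is a transcribed pseudogene there and had 14 to 77 counts per library. The 500 bases before each start codon were searched on both strands for the E2F letters TTTCCCGC, TTTGGCGC, TTTCGCGC and TTTGCCGC and for CTTNNNNNNNAAG, the palindrome that the plant damage factor SOG1 is known to bind. RNR1 and TSO2 held both kinds and RNR2A held neither, where 2.95% of 27443 genes held an E2F match, 20.3% a SOG1 match and 0.507% both. The stretches around the matches are shown because the pair of genes that hold them is the pair that rose after Zeocin. The part of the matches in that rise was not tested. Capitals mark the matches, and the sequence is from RefSeq (TAIR10.1), 5′ to 3′ on the strand of the gene.
RNR1, chromosome 2, SOG1 letters 274 to 262 and E2F letters (other strand) 258 to 251 bases before the start codon: ctcCTTCTCCTAGAAGctgGCGGGAAAatc
TSO2, chromosome 3, E2F letters 473 to 466 bases before the start codon: ctaaaacacatTTTGGCGCgtgtaacatcg
TSO2, chromosome 3, SOG1 letters 242 to 230 bases before the start codon: cccttcatCTTCCTCAACAAGcttttttct
The annotated transcripts begin 268 bases (RNR1) and 563 bases (TSO2) before the start codon, so these matches lie at or downstream of the annotated start. In the 250 bases before the annotated start no member held either kind. The longer window was chosen after the matches had been seen, and a match of letters is not a bound site.

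Library totals, in units of 1e6 estimated counts, were 13.1 to 15.3 in 29 libraries and 8.06 in normal light Δlinda replicate 1. Mock Col-0 replicate 1 carries a Δlinda genotype tag against its title and was grouped by its title. AT3G00800, taken as the LINDA locus from general knowledge, had 0 to 13 counts per library without damage, 506 to 779 (Col-0) and 135 to 444 (Δlinda) after Zeocin, and 74 to 148 and 14 to 25 after UV-C. No source used here describes what the Δlinda allele changes at this locus, so those counts check no label. All 18 markers of green tissue, roots and dividing cells (6 each) had counts in at least 1 library. The label of whole seedlings did not hold for the root markers in all libraries: 4 of the 6 were at or near 0 in normal light and UV-C libraries. CASP1, a gene of the root endodermis, stood at 17.3 ± 4.06 CPM in mock Col-0, at 0.185 ± 0.0732 CPM in normal light Col-0 and at 0 after UV-C in both genotypes (SD, n = 4). In the same 2 groups of Col-0 COBL9, a root hair gene, stood at 5.48 ± 1.41 and 0.0467 ± 0.0542 CPM, WER, a root epidermis gene, at 5.35 ± 0.971 and 0.735 ± 0.461 CPM, and PLT1, a root tip gene, at 4.48 ± 0.994 and 0 CPM. SCR and SHR made up most of the sum of the 6, which was 20.8 to 51.7 CPM in normal light and UV-C libraries against 76.2 to 110.2 CPM in mock and Zeocin libraries. The green tissue markers summed to 13101 to 18361 CPM in mock and Zeocin, 29167 to 44591 CPM in normal light and 15909 to 24954 CPM after UV-C. The mock and Zeocin libraries thus did not overlap with the others in the root sum or with normal light in the green sum, while their green sums overlapped with those after UV-C. The part of this in any comparison between the 2 sets was not tested. All 30 entries of each member were read as whole counts, with log likelihood margins over the next reading of 12.4 (RNR1), 16.6 (RNR2A) and 7.68 (TSO2) natural log units. Placed without use of the groups, the margins were 8.09, 13.8 and 5.03.

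Zeocin raised RNR1 and TSO2 in both genotypes, and RNR2A did not pass the test in either. The rise was larger for the small subunit TSO2, 22.3-fold in Col-0, than for the large subunit RNR1, 5.47-fold. Of the 3 members 2 rose in Col-0, where 4.09% of 21110 genes rose, and the same 2 rose in Δlinda, where 2.43% rose. None fell, against 1.25% and 0.441% of all genes (at an unadjusted p under 0.05 RNR2A did in Col-0, and by DESeq2 none). Levels below are CPM, TMM-scaled counts relative to 1e6 counts of the tested genes in a library. Fewer cells with a transcript and less of it per cell cannot be told apart in libraries of mixed tissue, labelled here as whole seedlings.

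**Figure D1:**
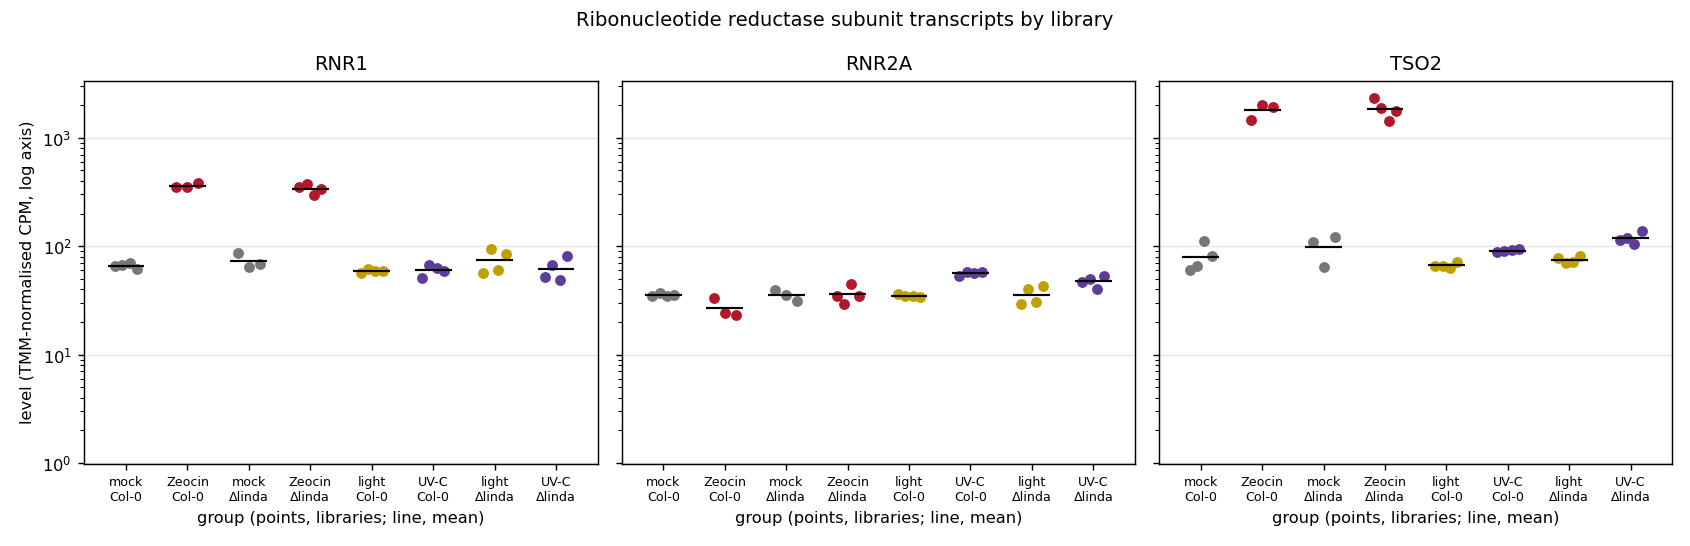
Level of each subunit transcript (CPM, log axis) in the 30 libraries by group; points are libraries and lines are group means. RNR1 and TSO2 sit far above all other groups in the 7 Zeocin libraries, at 296 CPM or more and 1424 CPM or more, while RNR2A stays between 23.2 and 58.2 CPM throughout.

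TSO2 stood at 60.9, 66.1, 112 and 82.0 CPM in mock Col-0 replicates 1 to 4 and at 1445, 2006 and 1917 CPM in Zeocin Col-0 replicates 1 to 3. In Δlinda it went from 110, 64.4 and 121 CPM in mock to 2303, 1879, 1424 and 1756 CPM after Zeocin. The lowest Zeocin library lay far above the highest mock library, at 1424 against 121 CPM. The log2 fold was 4.48 ± 0.20 (SE) in Col-0 (edgeR adjusted p = 8.3e-17) and 4.23 ± 0.22 in Δlinda (edgeR adjusted p = 5.2e-15). Among mock libraries TSO2 varied more than the other subunits, with Col-0 replicate 3 and Δlinda replicates 1 and 3 high. RNR2A stood at 34.5 CPM in that Col-0 library. In Δlinda replicates 1 and 3 it stood at 39.4 and 31.3 CPM, its highest and lowest values among the mock libraries.

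RNR1 stood at 65.4, 67.1, 70.6 and 61.1 CPM in mock Col-0 and at 349, 352 and 382 CPM after Zeocin. In Δlinda it went from 87.1, 64.1 and 68.7 CPM to 349, 377, 296 and 336 CPM. The groups did not overlap, and replicates differed far less than treatments. The log2 fold was 2.45 ± 0.16 in Col-0 (edgeR adjusted p = 6.2e-13) and 2.21 ± 0.17 in Δlinda (edgeR adjusted p = 3.9e-11).

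RNR2A stood at 34.7, 37.2, 34.5 and 35.9 CPM in mock Col-0 and at 33.5, 24.3 and 23.2 CPM after Zeocin, all 3 below the mock libraries. The log2 fold was -0.40 ± 0.14 with edgeR adjusted p = 0.11. With Zeocin Col-0 replicate 1 left out it was -0.58 with edgeR adjusted p = 0.014, so that this library decides the call. In Δlinda RNR2A had 39.4, 35.2 and 31.3 CPM in mock and 34.4, 29.3, 45.3 and 34.4 CPM after Zeocin, overlapping groups with a log2 fold of 0.02 ± 0.14.

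**Figure D2:**
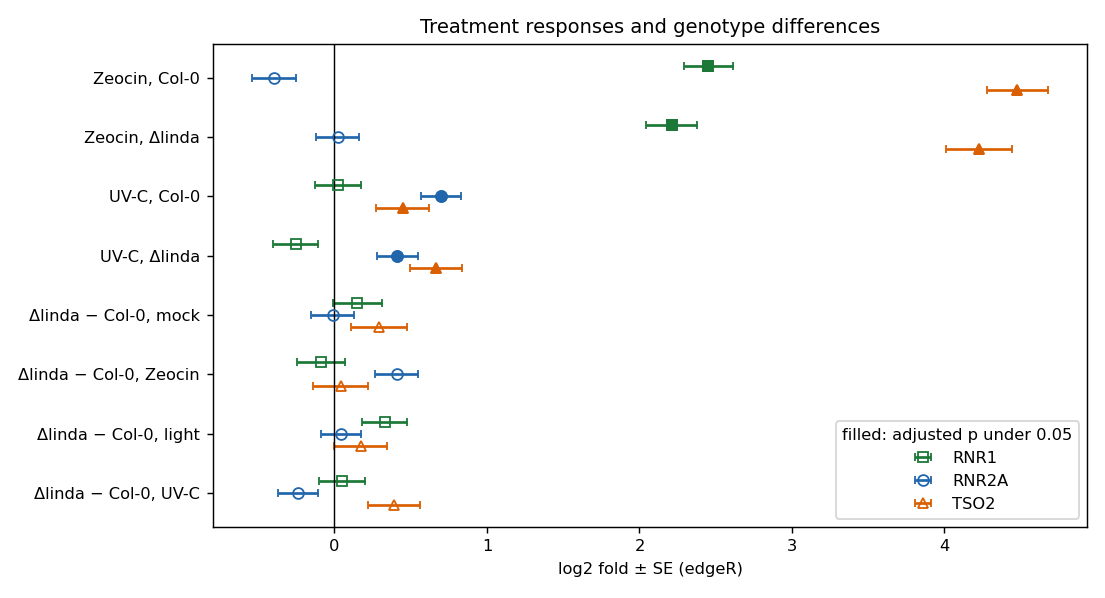
Log2 fold ± SE of each subunit for the 4 treatment responses (top) and the 4 genotype differences (below); filled symbols passed adjusted p 0.05 in edgeR. TSO2 and RNR1 stand at 4.48 and 2.45 for Zeocin in Col-0, the UV-C responses lie between -0.25 and 0.70, and every genotype difference is open.

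The make-up of the small-subunit transcripts shifted to TSO2 after Zeocin. Per kilobase of coding sequence TSO2 stood at 80.7 ± 23.2 CPM in mock Col-0 (SD, n = 4), RNR2A at 34.8 ± 1.24 and RNR1 at 27.0 ± 1.61. After Zeocin the levels per kilobase in Col-0 were 1797 ± 303 (TSO2), 26.4 ± 5.55 (RNR2A) and 147 ± 7.57 (RNR1; SD, n = 3). TSO2 thus made up 69.0 ± 5.96% of the small-subunit level in mock Col-0 and 98.5 ± 0.603% after Zeocin, and 73.1 ± 7.33% and 98.0 ± 0.727% in Δlinda. The small-subunit level was 4.27 ± 0.735 times that of RNR1 in mock Col-0 and 12.4 ± 1.88 times after Zeocin. These levels compare transcripts, not proteins, and the reads may not cover each transcript alike.

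Within libraries, where no scaling between libraries enters, TSO2 rose against RNR2A by 4.58 ± 0.27 on the log2 scale, averaged over the genotypes. RNR1 rose against RNR2A by 2.54 ± 0.15. The ratio of RNR1 to TSO2 went by -2.05 ± 0.17, a change of -2.05 in Col-0 and -2.04 in Δlinda. Each had p = 0.00082 in a two-sided exact permutation test of 1225 relabelings within genotypes, the smallest it can give (adjusted p = 0.00098 over 6 tests). Each pair of members thus changed by different amounts.

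**Figure D3:**
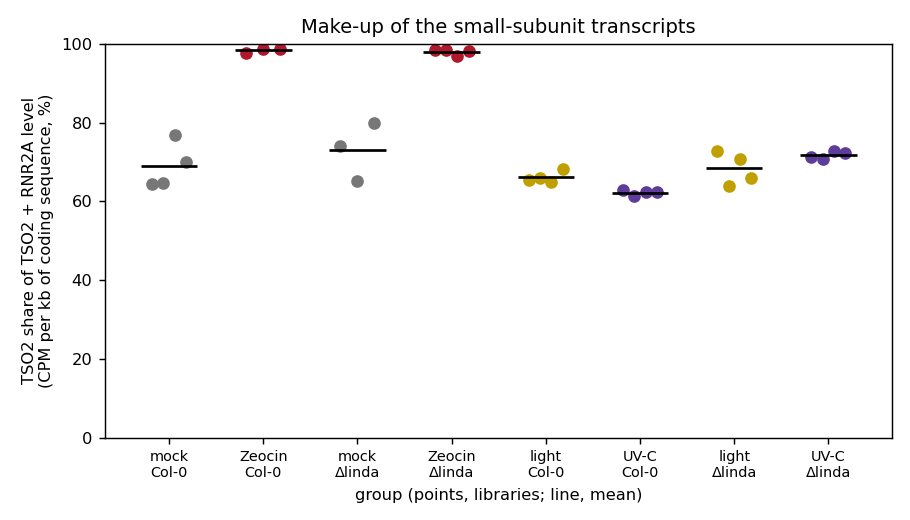
TSO2 as a percentage of the summed TSO2 and RNR2A level per kilobase of coding sequence, by library; lines are group means. The 7 Zeocin libraries lie between 97.0% and 98.8%, and the other 23 between 61.5% and 79.8%.

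The Zeocin libraries also differed among themselves. In Col-0 replicate 1 TSO2 was lowest of its group and RNR2A highest (1445 and 33.5 CPM), and in Δlinda replicate 3 RNR1 and TSO2 were lowest and RNR2A highest (296, 1424 and 45.3 CPM). TK1A (AT3G07800), a thymidine kinase that salvages thymidine, was lowest in the same libraries, at 495 CPM against 795 and 831 CPM in the other Col-0 libraries and at 368 CPM against 520 to 712 CPM in Δlinda. XRI1 (AT5G48720), a gene induced by X-rays, ran likewise at 650 CPM against 862 and 910 CPM in Col-0 and at 553 CPM against 709 to 848 CPM in Δlinda. XRI1 was picked as the gene nearest to TSO2 in pattern over the 30 libraries, these among them, so its course here is no separate support. In each genotype the library lowest in TSO2, TK1A and XRI1 was thus the one highest in RNR2A, a description over 7 libraries with no test. AT3G23570, whose annotated transcript overlaps RNR2A by 153 bases on the opposite strand, was highest in the same libraries. It had 32.7 CPM against 28.8 and 25.3 CPM in Col-0 and 40.3 CPM against 30.4 to 38.5 CPM in Δlinda. Its part in these RNR2A values was not tested.

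**Figure D4:**
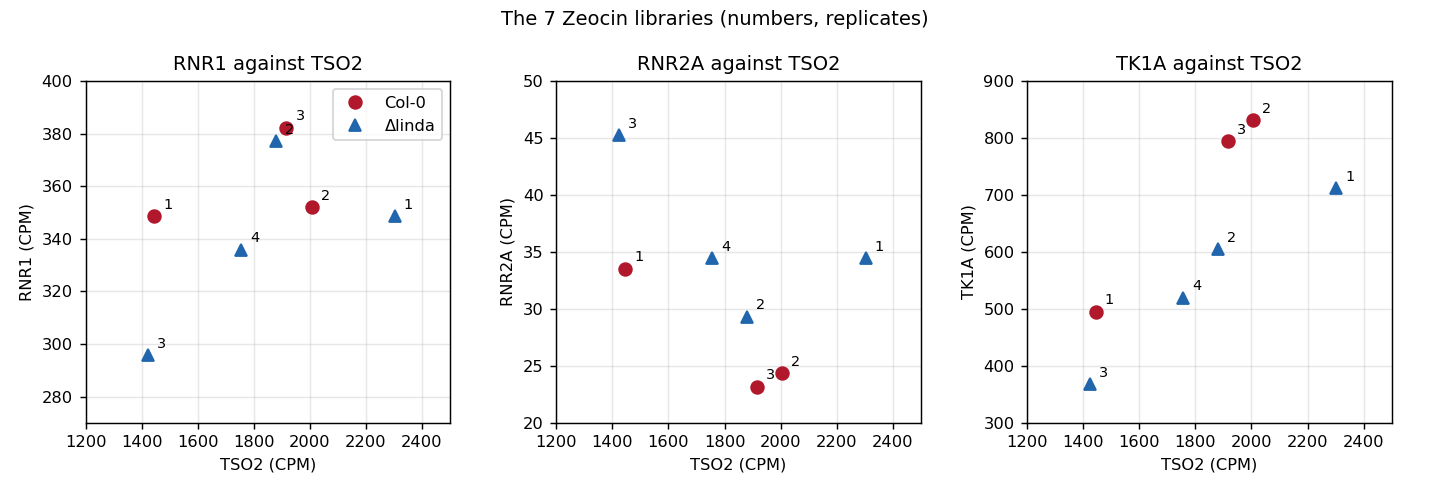
RNR1, RNR2A and the thymidine kinase gene TK1A (CPM) against TSO2 (CPM) in the 7 Zeocin libraries; circles are Col-0, triangles Δlinda and numbers replicates, and no axis starts at 0. Col-0 replicate 1 and Δlinda replicate 3 have the lowest TSO2 and TK1A (1445 and 495 CPM, and 1424 and 368 CPM) and the highest RNR2A of their groups.

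UV-C gave small changes of a different make-up. RNR2A and TSO2 rose in both genotypes and RNR1 did not pass the test. The 2 of 3 rises compare with 34.9% of all genes rising in Col-0 and 35.3% in Δlinda, and with 33.8% and 33.2% falling, so that a change here is common. Zeocin was set against mock in liquid medium and UV-C against normal light, so each response is relative to its own control.

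RNR2A stood at 35.9, 34.4, 35.0 and 34.4 CPM in normal light Col-0 and at 53.3, 58.2, 56.9 and 57.8 CPM after UV-C, with no overlap. The log2 fold was 0.70 ± 0.13 (edgeR adjusted p = 2.6e-05). In Δlinda it went from 29.5, 40.5, 30.5 and 42.7 CPM to 47.0, 50.3, 40.5 and 53.6 CPM, where the groups overlap (0.41 ± 0.13, edgeR adjusted p = 0.0066). With upper quartile scaling, which moves the median of all genes from 0.01 to -0.12 in Col-0 and from 0.03 to -0.11 in Δlinda, the Δlinda value was 0.23 with edgeR adjusted p = 0.14. The annotated transcript of AT3G23570 lies on the opposite strand and overlaps RNR2A by 153 bases, and no strand setting is given in the sources used here. AT3G23570 went from 35.6 ± 4.81 to 122 ± 11.2 CPM (SD, n = 4) in Col-0 and from 35.6 ± 4.98 to 128 ± 16.5 CPM in Δlinda. Without strand its reads in the overlap cannot be told apart from those of RNR2A, although no entry of either gene was read as a fraction, and its part in the RNR2A rise was not tested.

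TSO2 stood at 65.8, 65.3, 62.9 and 71.9 CPM in normal light Col-0 and at 87.6, 90.5, 91.5 and 93.3 CPM after UV-C (0.45 ± 0.17, edgeR adjusted p = 0.022). In Δlinda it went from 77.2, 70.1, 72.2 and 80.4 CPM to 114, 119, 105 and 137 CPM (0.66 ± 0.17, edgeR adjusted p = 0.0012). The groups did not overlap in either genotype. The Col-0 call was lost with upper quartile scaling (0.28, edgeR adjusted p = 0.15) and when normal light Col-0 replicate 3 was left out (0.42, edgeR adjusted p = 0.053). Its annotated transcript also overlaps AT3G27050 on the same strand by 3 bases.

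RNR1 stood at 56.5, 61.8, 58.9 and 58.8 CPM in normal light Col-0 and at 50.8, 66.5, 63.4 and 59.3 CPM after UV-C, overlapping groups with a log2 fold of 0.02 ± 0.15. In Δlinda it had 56.2, 93.9, 60.7 and 84.9 CPM in normal light and 51.4, 67.2, 48.5 and 81.2 CPM after UV-C (-0.25 ± 0.15, edgeR adjusted p = 0.13). It passed the test with upper quartile scaling (-0.43, edgeR adjusted p = 0.013) and when either normal light Δlinda replicate 1 (-0.36, adjusted p = 0.035) or UV-C Δlinda replicate 4 (-0.41, adjusted p = 0.016) was left out. Normal light Δlinda replicates 2 and 4 were high in RNR1 and RNR2A, and they also held the highest sums of the 6 dividing cell markers (147 and 132 CPM, against 97.9 and 125 CPM in replicates 1 and 3). The part of dividing cells in these values was not tested.

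Within libraries RNR1 went by -0.68 ± 0.07 against RNR2A and by -0.67 ± 0.12 against TSO2 after UV-C, on the log2 scale (both p = 0.00041 in a two-sided exact permutation test of 4900 relabelings, the smallest it can give; adjusted p = 0.00098). TSO2 against RNR2A moved by -0.01 ± 0.08 (p = 0.93 in the same exact test). That mean held opposite values in the genotypes, -0.25 in Col-0 and 0.23 in Δlinda. In Col-0 alone the exact adjusted p was 0.029, the smallest that 70 relabelings allow, and Δlinda alone did not pass. The difference between the genotypes, 0.47, had p = 0.10 in an exact permutation of genotype labels (adjusted p = 0.20), a test added after the values were seen. The lowest p of the 6 ratio changes in that exact test was 0.048, for RNR1 to RNR2A with Zeocin, where the change in Δlinda minus that in Col-0 was -0.66 (adjusted p = 0.20). After UV-C the TSO2 share of the small-subunit level was 62.2 ± 0.547% in Col-0 and 71.8 ± 0.881% in Δlinda, groups that did not overlap, against 66.1 ± 1.49% and 68.4 ± 4.15% in normal light. The log2 ratio of TSO2 to RNR2A after UV-C was 0.63 higher in Δlinda (exact permutation p = 0.029, the smallest that 70 relabelings allow, adjusted p = 0.17).

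The Zeocin and UV-C responses differed for RNR1 and TSO2 in both genotypes. The Zeocin response exceeded that to UV-C by 2.43 ± 0.22 (RNR1) and 4.03 ± 0.26 (TSO2) on the log2 scale in Col-0 and by 2.47 ± 0.22 and 3.56 ± 0.26 in Δlinda (largest edgeR adjusted p = 1.4e-10). RNR2A went the other way in Col-0, at -1.09 ± 0.19 (edgeR adjusted p = 2.0e-05), and had -0.39 ± 0.19 in Δlinda (edgeR adjusted p = 0.086). The Δlinda value passed when any 1 of 3 libraries was left out: Zeocin Δlinda replicate 3 (-0.52, edgeR adjusted p = 0.019), normal light Δlinda replicate 4 (-0.49, 0.035) or UV-C Δlinda replicate 3 (-0.46, 0.047). In this comparison 55.6% of all genes differed in Col-0 and 54.3% in Δlinda. The mock and Zeocin libraries, from liquid medium, had root marker sums of 76.2 to 110.2 CPM. Normal light and UV-C libraries had 20.8 to 51.7 CPM. The kind of damage cannot be told apart here from the other differences between the 2 sets.

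No member passed the test between Δlinda and Col-0 in any of the 4 conditions by edgeR, where 0.00947% (mock), 0.213% (Zeocin), 0.185% (normal light) and 0.0189% (UV-C) of all genes did, and none did by DESeq2. At an unadjusted p under 0.05 in edgeR there were 3 member values, RNR2A after Zeocin, RNR1 in normal light and TSO2 after UV-C. RNR2A after Zeocin had a log2 difference of 0.41, with an approximate 95% interval of 0.13 to 0.69 (edgeR adjusted p = 0.22). With Zeocin Col-0 replicate 1 left out it was 0.59 with edgeR adjusted p = 0.026. RNR1 in normal light had 0.33 (0.04 to 0.62, edgeR adjusted p = 0.51). TSO2 after UV-C had 0.39 (0.05 to 0.73, edgeR adjusted p = 0.68), and every Δlinda library lay above every Col-0 library. After Zeocin the intervals of RNR1 and TSO2 were -0.40 to 0.22 and -0.32 to 0.40, so that differences up to these bounds are not excluded. The treatment by genotype interactions had log2 values of -0.24 ± 0.22 (RNR1), 0.42 ± 0.20 (RNR2A) and -0.25 ± 0.26 (TSO2) for Zeocin. For UV-C they were -0.28 ± 0.21, -0.28 ± 0.19 and 0.22 ± 0.24, and none of the 6 passed (lowest edgeR adjusted p = 0.75; none by DESeq2). At an unadjusted p under 0.05 there was 1, RNR2A for Zeocin, and over all genes 0.0284% (Zeocin) and 0.0142% (UV-C) passed.

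No member passed the test between mock and normal light seedlings by edgeR, where 55.1% of all genes differed in Col-0 and 46.8% in Δlinda. The median sums of the markers went apart, at 98.4 (mock) and 45.2 CPM (normal light) for roots and 14849 and 35472 CPM for green tissue in Col-0, and their part in the comparison was not tested. The log2 values in Col-0 were 0.16 ± 0.15 (RNR1), 0.03 ± 0.13 (RNR2A) and 0.27 ± 0.17 (TSO2). In Δlinda they were -0.02 ± 0.16, -0.03 ± 0.14 and 0.39 ± 0.18, the last with an unadjusted p under 0.05 and edgeR adjusted p = 0.083. By DESeq2 it passed, at 0.43 (adjusted p = 0.046), and with mock Δlinda replicate 2 left out it was 0.62 (edgeR adjusted p = 0.0062).

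Some genes that feed nucleotides to or from the enzyme also changed after Zeocin. Of 18 genes of deoxynucleotide supply 3 rose and 1 fell in Col-0, where 4.09% of all genes rose and 1.25% fell, and 2 rose and 1 fell in Δlinda, where 2.43% rose and 0.441% fell, with medians of 0.07 in both against 0.00 for all genes. TK1A rose from 17.1 ± 4.11 to 707 ± 184 CPM in Col-0 (5.36 ± 0.21, edgeR adjusted p = 8.6e-18) and by 4.87 ± 0.23 in Δlinda. GK2 (AT3G57550), a guanylate kinase, rose by 1.83 ± 0.15 and 1.51 ± 0.16 on the log2 scale. DUT1 (AT3G46940), the dUTPase that keeps uracil out of DNA, fell from 15.9 ± 2.33 to 8.19 ± 2.25 CPM in Col-0 (-0.96 ± 0.18, edgeR adjusted p = 0.00079) and by 0.99 ± 0.18 on the log2 scale in Δlinda. GK1 (AT2G41880) rose by 0.51 ± 0.15 in Col-0 (edgeR adjusted p = 0.033). That call was lost without any 1 of mock Col-0 replicates 1 to 4 (0.061, 0.066, 0.088 and 0.052) or Zeocin Col-0 replicates 2 and 3 (0.065 and 0.27). None of 7 genes of thioredoxins, glutaredoxins and their reductases, which return electrons to the enzyme, passed in either genotype by edgeR or DESeq2, and at an unadjusted p under 0.05 in edgeR 1 rose in Col-0 and 2 in Δlinda.

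Of 21 S phase genes 2 rose after Zeocin in each genotype and 2 fell in each, against 4.09% rising and 1.25% falling among all genes in Col-0 and 2.43% and 0.441% in Δlinda. Those that rose were TIL1 (AT1G08260), the catalytic subunit of DNA polymerase epsilon (3.31 ± 0.22 and 3.01 ± 0.24), and RFC1 (AT5G22010), part of the clamp loader (1.63 ± 0.15 and 1.38 ± 0.15). In Col-0 the licensing genes CDT1A (-0.73 ± 0.18) and MCM7 (-0.75 ± 0.19) fell, and in Δlinda the helicase genes MCM2 (-0.66 ± 0.18) and MCM4 (-0.71 ± 0.16). The list medians were -0.20 and -0.40. The falls rest on single libraries: their number in Col-0 was 4 without Zeocin replicate 1 and 0 without replicate 2 or 3. In Δlinda it was 0 without mock replicate 1, 5 without Zeocin replicate 3 and 1 without mock replicate 3 or Zeocin replicate 1, 2 or 4. Dividing cell markers summed to 54.8 to 81.2 CPM in the 7 Zeocin libraries and to 72.8 to 129 CPM in the 7 mock libraries, and 3 of the 6 fell in each genotype. Their part in the replication genes was not tested.

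Of the 7 measured regulators 2 rose after Zeocin in Col-0 and 1 in Δlinda, where 4.09% and 2.43% of all genes rose. By DESeq2 3 rose in Col-0 and 1 in Δlinda, and at an unadjusted p under 0.05 in edgeR 5 and 1 did. WEE1 (AT1G02970), a checkpoint kinase, rose by 2.03 ± 0.28 and 1.49 ± 0.29. E2FB (AT5G22220), an E2F factor of the cell cycle, rose by 0.73 ± 0.18 in Col-0 (edgeR adjusted p = 0.0095, and 0.10 and 0.068 with Zeocin Col-0 replicate 2 or 3 left out). SOG1 (AT1G25580), a plant transcription factor that answers DNA damage, had 0.32 ± 0.13 in Col-0 and 0.24 ± 0.13 in Δlinda. The damage kinase genes ATR (AT5G40820) and ATM (AT3G48190) had 0.53 and -0.08 in Col-0 and 0.04 and -0.06 in Δlinda. Neither these nor SOG1 passed by edgeR. DEL1, an atypical E2F gene, was left out because its decimals were unclear.

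After UV-C some genes around the enzyme had larger log2 folds than any of its subunits. GK1 rose by 4.00 ± 0.15 in Col-0 and 3.79 ± 0.15 in Δlinda, GK2 by 3.50 ± 0.16 and 3.02 ± 0.15, and TK1A by 1.62 ± 0.19 and 1.65 ± 0.19. Of the 18 supply genes 8 rose and 5 fell in Col-0, where 34.9% of all genes rose and 33.8% fell, and 8 rose and 6 fell in Δlinda, where 35.3% rose and 33.2% fell. Of the 7 reductant genes 6 rose in both genotypes and 0 fell, beside the same shares of all genes. TRXH5 (AT1G45145), a thioredoxin, rose from 11.2 ± 4.02 to 103 ± 17.6 CPM in Col-0 (3.21 ± 0.25), GR1 (AT3G24170), glutathione reductase, by 1.84 ± 0.13 and NTRA (AT2G17420), a thioredoxin reductase, by 1.65 ± 0.11. The glutaredoxin genes GRXC2 (AT5G40370) and GRXC1 (AT5G63030) rose by 0.98 ± 0.13 and 0.78 ± 0.16. The list medians were 0.98 in Col-0 and 1.26 in Δlinda, against 0.01 and 0.03 for all genes.

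The S phase list had 3 rises and 5 falls after UV-C in Col-0 and 2 rises and 5 falls in Δlinda, of 21 genes. Among all genes 34.9% and 35.3% rose and 33.8% and 33.2% fell. The gene with the lowest value in Col-0 was CDC6 (AT2G29680), a licensing gene, at -1.20 ± 0.28 and, in Δlinda, -0.66 ± 0.27. MCM7 fell in both (-0.57 ± 0.17 and -0.72 ± 0.17), as did FAS2 (AT5G64630), a chromatin assembly gene (-0.79 ± 0.22 and -0.55 ± 0.22), and FEN1 (AT5G26680), which trims Okazaki fragments, rose (0.56 ± 0.18 and 0.70 ± 0.18). The Δlinda falls of CDC6 and FAS2 were each lost when any 1 of normal light replicates 2 and 3 or UV-C replicates 1 and 3 was left out, that of CDC6 also without normal light replicate 1 and that of FAS2 also without UV-C replicate 2 (adjusted p = 0.052 to 0.076). MCM3 fell in both (-0.43 ± 0.17 and -0.51 ± 0.17) and CDT1A rose in both (0.61 ± 0.16 and 0.43 ± 0.16). The Col-0 call of MCM3 was lost when replicate 2 of normal light or 1, 3 or 4 of UV-C was dropped (adjusted p = 0.055 to 0.13), and that in Δlinda without UV-C replicate 3 (0.055). The Δlinda call of CDT1A was lost when replicate 1 or 3 of normal light or 1 or 4 of UV-C was dropped (0.060 to 0.094) and with upper quartile scaling (0.20). Upper quartile scaling also ended the Col-0 call of FEN1 (0.39, edgeR adjusted p = 0.067). With 1 library left out the falls in Col-0 were 3 (normal light replicate 2, UV-C replicate 1 or 4). In Δlinda they were 2 (normal light replicate 2 or 3, UV-C replicate 1 or 3), 3 (UV-C replicate 2) or 9 (UV-C replicate 4), and the rises were 1 (normal light replicate 1 or 3, UV-C replicate 1 or 4). SOG1 rose by 1.48 ± 0.12 in Col-0 and 1.39 ± 0.13 in Δlinda. E2FC (AT1G47870) rose by 1.03 ± 0.17 and 0.92 ± 0.17, and E2FB by 0.70 ± 0.18 in Col-0. ATR had -0.36 ± 0.34 and -0.21 ± 0.35. ATM fell by 0.39 ± 0.14 on the log2 scale in Col-0 (edgeR adjusted p = 0.016) and by 0.63 ± 0.14 in Δlinda. The Col-0 call of ATM was lost when normal light replicate 2 or 3, or UV-C replicate 1 or 4, was left out (adjusted p = 0.051, 0.066, 0.057 and 0.071). In both genotypes 5 of 6 dividing cell markers, 5 of 6 green tissue markers and 3 of 6 root markers fell too, with medians of -0.75, -1.32 and -0.59 in Col-0 and -0.71, -1.32 and -0.66 in Δlinda. Their part in these changes was not tested.

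**Figure D5:**
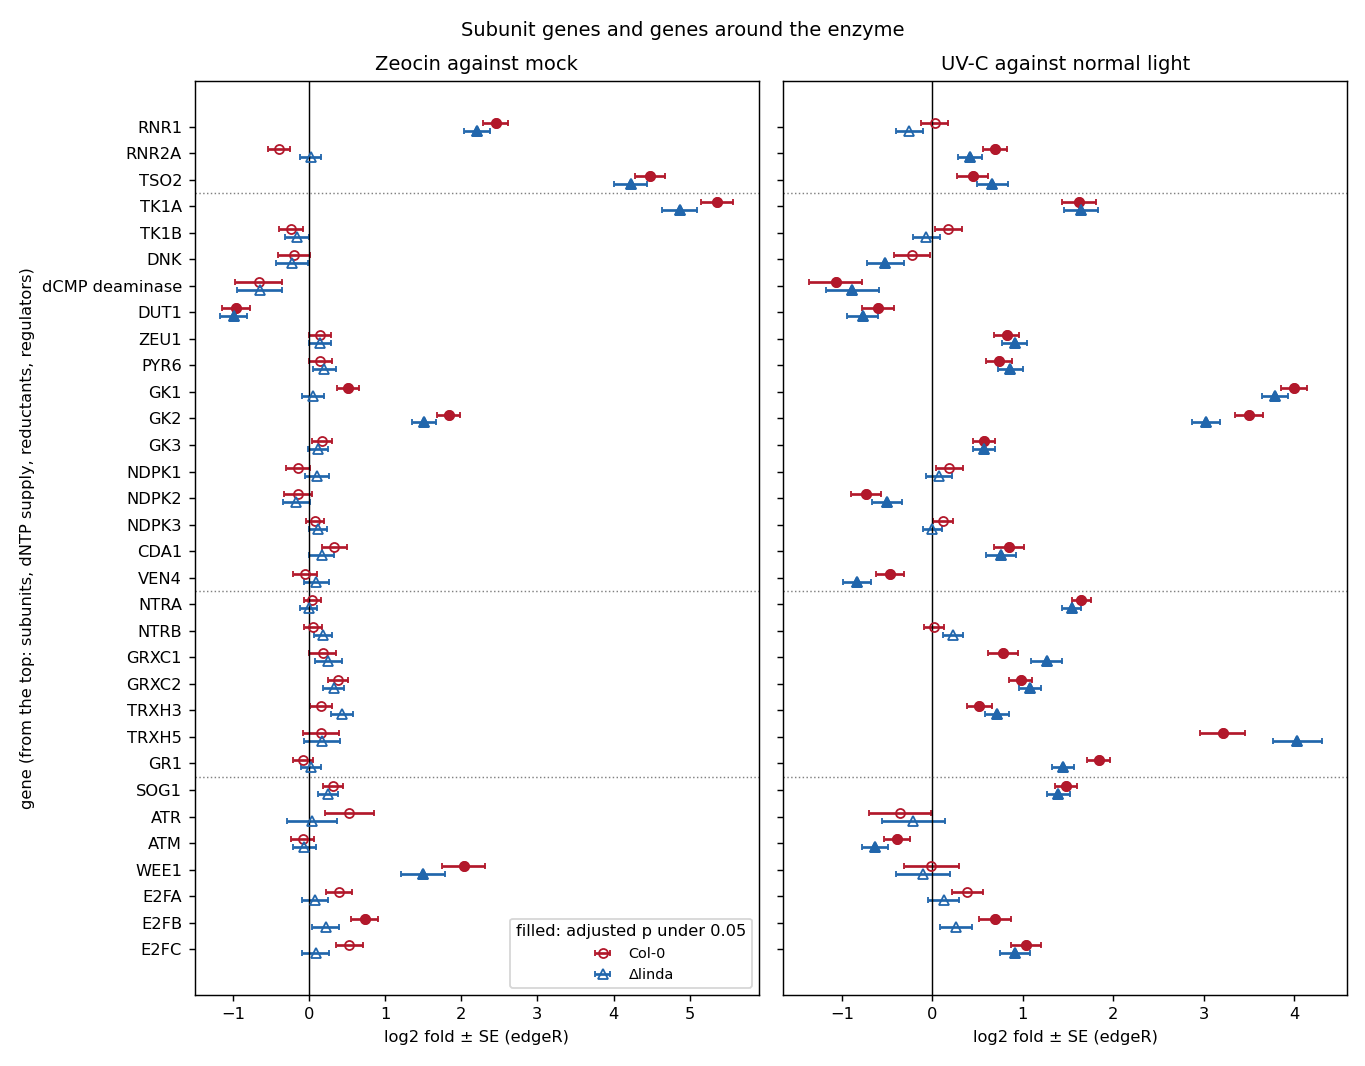
Log2 fold ± SE of the subunit genes and of listed genes of deoxynucleotide supply, reductants and regulators after Zeocin (left) and UV-C (right); circles are Col-0, triangles Δlinda and filled symbols passed adjusted p 0.05 in edgeR. After Zeocin TK1A (5.36 in Col-0) and TSO2 (4.48) stand far to the right of most genes, and after UV-C GK1 and GK2 (4.00 and 3.50) do.

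Across the 30 libraries genes near to TSO2 in pattern, by Pearson r of log2(CPM + 1), were XRI1 (r = 0.994), the recombination repair gene BRCA1 (AT4G21070, 0.989), the poly(ADP-ribose) polymerase gene PARP2 (AT4G02390, 0.985) and the DNA methyltransferase gene DRM1 (AT5G15380, 0.985). Those nearest to RNR1 were PARP1 (AT2G31320, 0.987), AT2G45460 (0.986), TIL1 (0.983), AT4G19130 (0.982), a replication protein A gene, and AT5G23910 (0.979). These genes were high in the Zeocin libraries, so that the 30 points share a gap between the 7 Zeocin libraries and the others, whose part in r was not tested. After Zeocin in Col-0 XRI1 rose by 5.76 ± 0.21, BRCA1 by 5.43 ± 0.25 and PARP1 by 3.60 ± 0.20, while DRM1 was listed at 0 in every mock Col-0 library and averaged 7.94 CPM.

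RNR1 and TSO2 had r = 0.970 with each other, which made TSO2 number 18 in the order of RNR1 and RNR1 number 36 in the order of TSO2. RNR2A had -0.450 with RNR1 and -0.398 with TSO2. Its nearest genes were AT1G71840 (0.889), CRF11 (AT3G25890, 0.887), a cytokinin response factor, AT2G25670 (0.876), AT4G32240 (0.873) and RIP1 (AT3G15000, 0.859), a factor of organelle RNA editing. Each of these 5 had a higher mean in UV-C than in normal light libraries of Col-0, from 62.8 against 41.7 CPM for AT1G71840 to 65.2 against 21.5 CPM for CRF11. They were picked by r with RNR2A over these same libraries, where RNR2A was higher after UV-C, so their rise follows from the choice and is no separate result.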

How the data were processed

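RNA-seq of 30 libraries labelled as whole seedlings was used. Salmon 0.14.1.2 gave the counts, and Trimmomatic 0.38.0 and FastQC 0.72 are also named, per the submitters' processing notes; the transcript set, genome build and strand setting are not given in the sources used here. The table the authors deposited holds estimated counts (expected counts per gene), not normalised, whose non-whole entries have lost their decimal mark, as read from the values.

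The marks were put back by the likeliest joint placement of 0 to 3 decimals per gene over all libraries, where the replicates of each group were given a common level. The settings of this step were adjusted several times after looking at the table, its library totals and simulated data. Of 723692 entries above 0, 107135 (14.8%) received decimals, and 2204 genes were left out where odds for the placement were under 20. In units of 1e6 counts, the genes kept held 11.3 to 12.1 of 14.1 to 14.8 in UV-C Col-0 libraries. In UV-C Δlinda they held 12.0 to 12.7 of 14.4 to 14.7, and in normal light Col-0 12.3 to 14.3 of 13.2 to 15.3. The part of this loss in the UV-C values was not tested. Placed without groups, 122 entries differed among 28030 genes clear both ways. Of 7128 genes that were whole with 50 counts or more in all 23 libraries without Zeocin, 194 had a decimal in any Zeocin library and 1 in all 7. The placement can draw replicates together.

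The rounded values went into edgeR 4.0.16 (R 4.3.3): filterByExpr (count 10, total 15), TMM, 1 robust quasi-likelihood fit with 8 groups, 14 contrasts, Benjamini-Hochberg adjustment over 21110 genes, threshold 0.05. SE was taken from the log2 fold and its F statistic, and approximate intervals are 1.96 SE. Ratios between members were tested by exact permutation within genotypes. The scripts were tested on simulated data. Groups follow the titles: mock Col-0 replicate 1 carries a conflicting genotype tag, and the protocol text joins the word mock to the drug. The edgeR p-values set a difference against the spread between samples within groups, estimated over all 8 groups, which may be technical. Those of the permutation tests come from relabelled libraries. Counting precision is bounded by the counts (188 to 36717 per member and library). Alternatives were RLE and upper quartile scaling, TMM without organelle and ribosomal RNA genes, no filter, DESeq2 1.42.0, fits of the compared groups only, a replicate block, decimals placed without groups, and each replicate left out. Lengths and sequences are from RefSeq (TAIR10.1); no coordinates are printed, since the build of the files is not given.

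Members and lists were chosen with earlier results of these data known. Named genes are the 3 members, up to 5 genes per list and response past the threshold by size, SOG1, ATR and ATM, and for each member the 5 genes nearest in pattern; smaller list members and the left-out genes are counted only. Some genes that this rule names are not reported here.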

Additional observations from a re-analysis of the deposited data

How the results depend on the processing

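The rises of RNR1 and TSO2 after Zeocin kept their direction and their side of the threshold in all 15 alternatives in each genotype, with log2 folds of 2.41 to 2.48 (RNR1) and 4.37 to 4.68 (TSO2) in Col-0. The Δlinda ranges were 2.12 to 2.35 (RNR1) and 4.00 to 4.40 (TSO2). So did the rise of RNR2A after UV-C in Col-0 (0.53 to 0.76 in 16 alternatives). Upper quartile scaling ended the UV-C rises of TSO2 in Col-0 (0.28) and of RNR2A in Δlinda (0.23) and called RNR1 in Δlinda after UV-C (-0.43) and TSO2 in mock against normal light in Δlinda (0.45), which DESeq2 also called (0.43). A fit of the compared groups only called RNR1 in mock against normal light in Col-0 (0.20). With each replicate left out in turn, RNR2A ranged from -0.58 to -0.30 (Zeocin, Col-0), from 0.28 to 0.59 (Δlinda against Col-0 after Zeocin) and from -0.52 to -0.30 (Zeocin minus UV-C, Δlinda). TSO2 ranged from 0.42 to 0.50 (UV-C, Col-0) and from 0.22 to 0.62 (mock against normal light, Δlinda), and RNR1 from -0.41 to -0.12 (UV-C, Δlinda). With each genotype taken by itself, the TSO2 to RNR2A change with UV-C was called in Col-0 (-0.25), at the smallest p that the test allows.

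S phase falls after Zeocin in Col-0 were 0 in a fit of the compared groups only and 0 to 4 with replicates left out. In Δlinda they were 1 with upper quartile scaling, the replicate block or the compared groups only, 5 by DESeq2 and 0 to 5 with replicates left out. After UV-C the S phase rises were 1 with upper quartile scaling in both genotypes and 5 with the compared groups only in Col-0. The falls there were 3 with decimals placed without groups in both genotypes and 9 with upper quartile scaling in Δlinda. With replicates left out the falls ranged from 3 to 4 (Col-0) and from 2 to 9 (Δlinda), and the rises from 1 to 2 (Δlinda). Regulator rises after Zeocin in Col-0 were 1 with the compared groups only and 1 to 2 with replicates left out, and regulator falls after UV-C in Col-0 0 to 1. The cause was not tested. Divided by transcript in place of coding length, a choice added after seeing the data, the small-subunit level was 3.11 and 8.91 times that of RNR1 in mock and Zeocin Col-0, 3.24 and 9.78 in Δlinda, 3.05 and 4.39 in normal light and UV-C Col-0, and 2.76 and 4.88 in Δlinda, and the TSO2 share after UV-C in Col-0 was 61.6%.

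The labels give replicate numbers with no statement that they pair samples, and 10 of 28 same-numbered pairs of libraries deviated together with a correlation over 0.1. The replicate block gave RNR1 2.48 and TSO2 4.51 after Zeocin in Col-0 and changed no call of a member. RNR2A, at 188 to 670 counts per library, has the least depth behind it.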
